A study of Mus musculus with 4 samples.

Results

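Spp1, Ibsp, Dmp1, Mepe, Phex, Alpl, Enpp1 and Phospho1 were followed in Td+ bone marrow cells from the early progenitor to the osteocyte and in hypertrophic chondrocytes. These 8 genes, 4 members of the SIBLING family and 4 genes of phosphate and pyrophosphate handling, were chosen by name out of 26600 genes listed for every library, and all 8 were found in all 4 libraries. The cells came from endosteal bone marrow of male Col2:Td mice of the strain B6SJL/F1, which carry Col2-Cre and a Rosa26 lsl-tdTomato reporter, so that cells in which the collagen II Cre acted, and their descendants, are red. Td+ cells were sorted, as the top 1% where no Td peak was obvious, and sequenced as 1 pooled library per age, from 2 mice aged 1 month and from 3 mice each aged 1.5, 3 and 16 months. No treatment is named for the mice, and which cells carry the reporter depends on where and when the Cre was active. With 1 pooled library per age there is no replicate, no difference was tested, and age and library cannot be told apart. Intervals given below are exact 95% limits that cover counting error only.

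The SIBLING proteins are acidic, integrin-binding phosphoproteins that bone cells secrete into the matrix they mineralize. The family holds, among others, osteopontin (Spp1), bone sialoprotein (Ibsp), dentin matrix protein 1 (Dmp1) and matrix extracellular phosphoglycoprotein (Mepe). Tissue-nonspecific alkaline phosphatase (Alpl) removes pyrophosphate, an inhibitor of mineral growth that Enpp1 makes from ATP outside the cell, Phospho1 frees phosphate inside matrix vesicles, and Phex is a membrane endopeptidase that cleaves SIBLING peptides and whose loss gives a phosphate-wasting rickets.

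The 4 SIBLING members lie side by side on the plus strand of chromosome 5. With Dspp, the remaining gene of the family, they fill 270.3 kb of GRCm38 in the GENCODE M21 annotation, in the order Dspp at chr5:104170712-104180127, Dmp1 at chr5:104202613-104214102, Ibsp at chr5:104299171-104311469, Mepe at chr5:104325329-104338611 and Spp1 at chr5:104435118-104441050. The enzymes lie elsewhere, Phex at chrX:157162075-157415312, Alpl at chr4:137741733-137796384, Enpp1 at chr10:24637914-24712159 (these on the minus strand) and Phospho1 at chr11:95824499-95832140. The 250 bases before a RefSeq transcription start (GRCm38.p6) are shown for Dmp1, Mepe and Phex, which were higher in Ocy-like (osteocyte) than in OB-like (osteoblast) cells in all 4 libraries, and for Spp1, which was not. Capitals mark 2 motifs, each searched on both strands. One is the core TGTGGT that RUNX factors recognise. The other is the TATA box, searched as TATAAA. The 2 motifs share no letters in these windows.
Dmp1, chr5:104202367-104202616, plus strand: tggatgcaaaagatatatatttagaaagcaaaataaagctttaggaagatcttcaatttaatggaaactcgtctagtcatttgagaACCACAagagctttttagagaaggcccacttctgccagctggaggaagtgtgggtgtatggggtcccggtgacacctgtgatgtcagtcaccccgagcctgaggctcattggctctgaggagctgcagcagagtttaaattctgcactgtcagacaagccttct
Mepe, chr5:104325079-104325328, plus strand: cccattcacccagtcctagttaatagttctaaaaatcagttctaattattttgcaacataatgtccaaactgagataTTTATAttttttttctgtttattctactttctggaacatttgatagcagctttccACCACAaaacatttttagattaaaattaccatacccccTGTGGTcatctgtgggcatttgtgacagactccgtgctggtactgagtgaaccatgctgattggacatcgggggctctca
Spp1, chr5:104434861-104435110, plus strand: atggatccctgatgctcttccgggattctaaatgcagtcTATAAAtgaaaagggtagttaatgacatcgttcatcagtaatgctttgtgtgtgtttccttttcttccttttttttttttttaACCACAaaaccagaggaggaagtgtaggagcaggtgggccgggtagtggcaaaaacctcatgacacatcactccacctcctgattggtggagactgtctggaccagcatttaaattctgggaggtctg
Phex, chrX:157415287-157415536, minus strand: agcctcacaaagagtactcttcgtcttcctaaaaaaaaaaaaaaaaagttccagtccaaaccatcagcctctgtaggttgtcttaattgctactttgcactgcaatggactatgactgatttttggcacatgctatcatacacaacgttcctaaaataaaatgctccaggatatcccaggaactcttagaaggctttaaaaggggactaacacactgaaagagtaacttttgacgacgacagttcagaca
The Dmp1 window, at its second listed start, held the RUNX core 164 bases before the start, the Mepe window held it 118 and 80 bases before, with a TATA box at 173, and the Spp1 window held the core at 128 and a TATA box at 211. The Phex window held neither motif, nor did the window at the first listed Dmp1 start, which is not shown. Ibsp, also higher in Ocy-like than in OB-like cells in all 4 libraries, is not shown either. Its window held a TATA box 28 bases before the start and no RUNX core. The RUNX core was found before 4 of the 11 starts listed for the 8 genes and in 14% of 32851 such windows of all genes, and the TATA box before 4 of the 11 and in 12.4%. A match of letters is a description and not a site of binding.

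Depth was 108227184, 63258961, 32672631 and 93269331 UMIs (unique molecules) at 1, 1.5, 3 and 16 months, with a median of 10238, 9309, 5999 and 8648 per barcode, and the filter on cells kept 98.7%, 94.9%, 92.6% and 66.6% of the barcodes. Between 30 and 61 cell barcodes were shared between any pair of the 3 younger libraries and 1 or 2 with the 16 month library. Cells were clustered without the 8 genes, and clusters were named from other markers as EMP-like and LMP-like (early and late mesenchymal progenitors), OB-like (osteoblasts), Ocy-like (osteocytes), AD-like (adipocyte lineage) and CH-like (chondrocytes). At 1, 1.5, 3 and 16 months the classes held 161, 113, 113 and 141 EMP-like, 658, 898, 471 and 242 LMP-like, 303, 360, 296 and 424 OB-like and 41, 95, 33 and 53 Ocy-like cells. Hypertrophic CH-like cells, named from Col10a1, Ihh and other markers, numbered 44, 288 and 141 at 1, 1.5 and 3 months, and at 16 months all 120 CH-like cells fell in 1 cluster that held resting and hypertrophic markers alike. The 16 month OB-like class joined a subcluster of 229 cells with a median of 1146 UMIs to one of 195 cells with 26035. Levels are given as CPM, the UMIs of a gene in every 1000000 UMIs when all cells of a class in a library are added up, and are compared within a gene only.

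By class, 4 of the genes kept 1 order in all 4 libraries. Alpl was higher in LMP-like than in EMP-like cells and low again in Ocy-like cells, Dmp1 and Phex stood above their LMP-like level in OB-like cells and higher again in Ocy-like cells, and Mepe, read at low level, was higher in Ocy-like than in OB-like cells. The order of Ibsp and Spp1 below the OB-like stage differed between libraries, and in LMP-like cells the sums of both rested on few cells. Phospho1 was close to undetected everywhere.

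**Figure D1:**
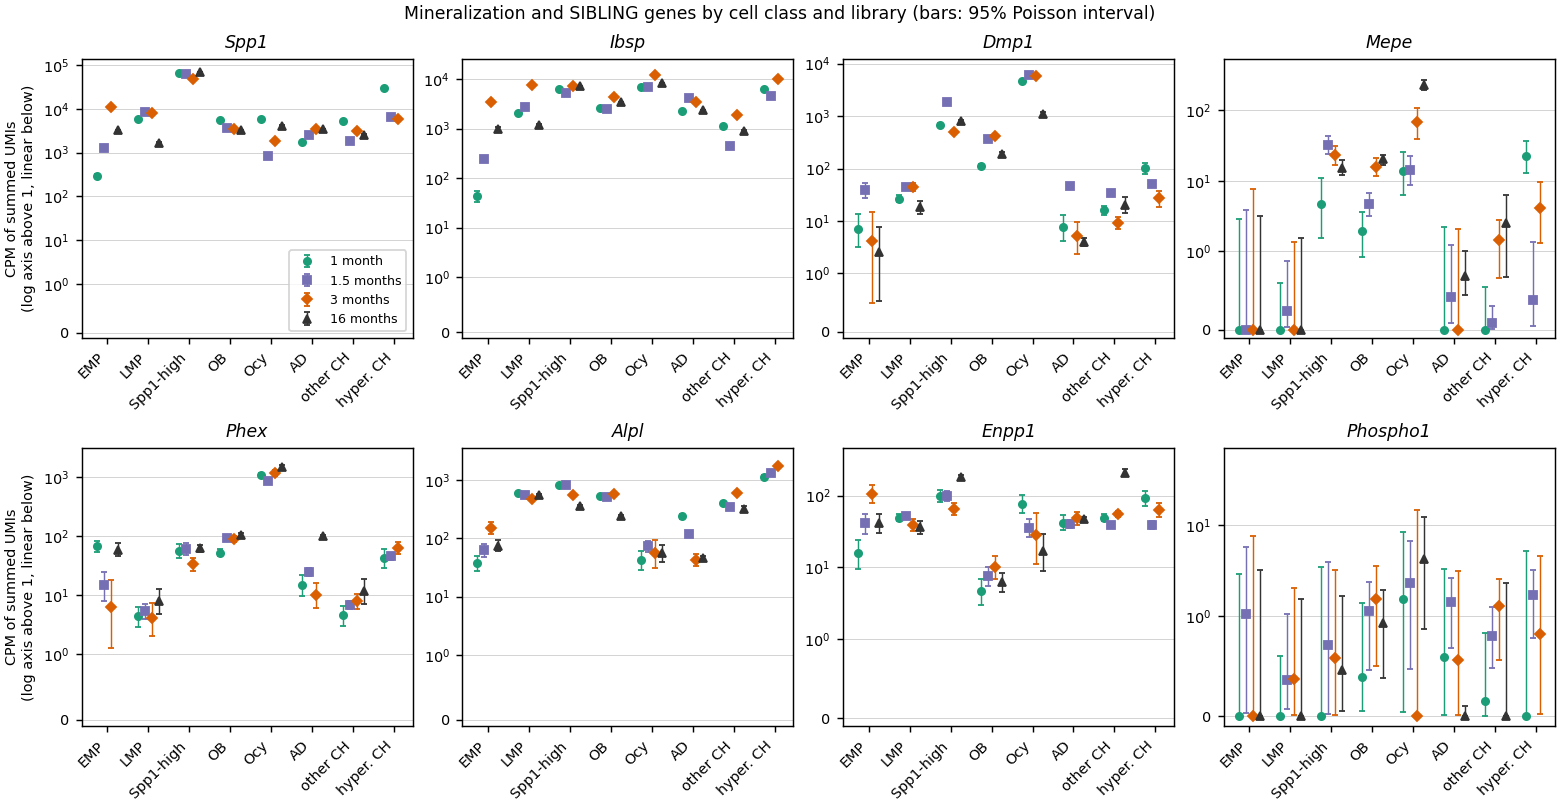
Levels of the 8 genes in each cell class, as CPM of summed UMIs on an axis that is logarithmic above 1 and linear below it, with 1 marker per library and bars for 95% Poisson intervals; "Spp1-high" joins the numbered subclusters described with Spp1, "other CH" is every CH-like cell outside the hypertrophic cluster. Dmp1 stood at 4603, 5965, 5773 and 1104 CPM in Ocy-like cells against 26.6, 43.6, 44.9 and 18.3 CPM in LMP-like cells, and Alpl at 42.6 to 73.0 CPM in Ocy-like cells against 477 to 586 CPM in LMP-like cells.

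Alpl, the phosphatase used as an early sign of osteogenic commitment, was at 37.4, 62.1, 152 and 74.1 CPM in EMP-like cells and at 586, 551, 477 and 542 CPM in LMP-like cells at 1, 1.5, 3 and 16 months. The LMP-like level was thus 15.7 (95% interval 11.8 to 21.3), 8.88 (6.88 to 11.7), 3.14 (2.48 to 4.02) and 7.32 (5.88 to 9.21) times the EMP-like one, and the intervals of the classes did not meet in any library. In OB-like cells Alpl was at 519, 501, 570 and 239 CPM, close to LMP-like cells in the 3 younger libraries and 2.27-fold below them at 16 months. In Ocy-like cells it was at 42.6, 73.0, 55.6 and 54.9 CPM, which was 12.2, 6.86, 10.3 and 4.35-fold below OB-like cells. Alpl was thus lower past the osteoblast stage in every library. Among mesenchymal cells outside the chondrocytes, the highest Alpl of the younger 2 libraries was in an unnamed subcluster led by Limch1 and Kcnk2, with 1476 CPM at 1 month (215 cells) and 1388 CPM at 1.5 months (310 cells).

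Ibsp, which nucleates mineral and binds cells, was at 42.9, 238, 3471 and 1005 CPM in EMP-like cells and 2060, 2748, 7668 and 1200 CPM in LMP-like cells. The step into LMP-like cells was therefore 48.0-fold (36.9 to 63.8) at 1 month and 11.6-fold (10.1 to 13.2) at 1.5 months, but 2.21-fold at 3 months and 1.19-fold at 16 months, where EMP-like cells already held much Ibsp. At 3 months 87.8% of the Ibsp UMIs of EMP-like cells lay in 12 of the 113 cells, and the median EMP-like cell held 142 CPM. In LMP-like cells the 10% of cells with the most held 84.5%, 70.9%, 74.2% and 62.6% of the Ibsp UMIs, and the median cell held 92.4, 288, 610 and 79.9 CPM, so that a high sum stood beside a low typical cell. In OB-like cells Ibsp was at 2615, 2546, 4353 and 3410 CPM. Ocy-like cells held the highest Ibsp of any named class in every library, at 6787, 7016, 12261 and 8175 CPM, and the step from OB-like cells was of like size throughout, at 2.60, 2.76, 2.82 and 2.40-fold. Neutrophil-like cells, a blood lineage taken here as a rough guide to the level that free RNA gives, held 66.0, 792, 281 and 372 CPM of Ibsp. At 1.5 months this level is a high bar, since those cells also held 380 CPM of Alpl, against 13.8 to 28.9 CPM in the other libraries. The mean per cell there was 369 CPM of Alpl and 667 CPM of Ibsp. In the 39 erythroid-like cells, another blood lineage, it was 44.2 and 306 CPM. Dmp1 went the other way, at 23.5 CPM in neutrophil-like and 45.7 CPM in erythroid-like cells.

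Spp1, a matrix protein also made outside bone, had summed levels in LMP-like cells of 5858, 8489, 8081 and 1689 CPM, above or below those of OB-like cells (5581, 3568, 3425 and 3215 CPM) depending on the library. These sums rested on few cells. The tenth of LMP-like cells with the most Spp1 UMIs, 66, 90 and 48 cells, held 91.1%, 91.5% and 92.5% of the Spp1 UMIs of the class at 1, 1.5 and 3 months, and 25 cells held 67.4% at 16 months. The median LMP-like cell held 325, 614, 214 and 351 CPM, far under the summed level. The median OB-like cell held 2053, 693, 234 and 1802 CPM, above the median LMP-like cell in every library, though by little at 1.5 and 3 months. In EMP-like cells the summed level was 286, 1252, 11059 and 3232 CPM, and at 3 months 12 of the 113 cells held 85.2% of it. Ocy-like cells held 5920, 827, 1799 and 4096 CPM, with a median cell at 532, 497, 130 and 634 CPM. Neutrophil-like cells held 478, 1341, 906 and 661 CPM, with a median cell at 266, 656, 204 and 344 CPM. The median LMP-like cell lay close to the median neutrophil-like cell in each library.

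The highest Spp1 of the progenitor and osteogenic cells lay in subclusters that met no naming rule and that were singled out here after their Spp1 values were seen. They held 65525 CPM at 1 month (103 cells), 62048 at 1.5 months (166 cells), 47268 at 3 months (231 cells) and 67636 at 16 months (364 cells), with a median cell at 50467, 40514, 25653 and 40129 CPM. Their leading genes were Car3, Mmp13 and Serpine2 in the younger 2 libraries, Pf4, Limch1 and Mmp9 at 3 months and Postn, Bglap2 and Bmp3 at 16 months. Other members were present in these subclusters. Dmp1 was at 683, 1884, 500 and 813 CPM there, above the summed level of OB-like cells in each library, but at 3 months the median cell held 0 Dmp1 UMIs, against 69.2 CPM in the median OB-like cell, and 24 of 231 cells held 61.0% of the sum. Phex was at 55.4, 60.4, 32.9 and 61.3 CPM there, against 52.0, 92.9, 87.6 and 103 CPM in OB-like cells. It was thus close to its OB-like level at 1 month and below it in the other libraries. Both Dmp1 and Phex were below their Ocy-like levels in each library. Alpl was at 805, 812, 540 and 358 CPM in these subclusters, above or close to its OB-like level.

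**Figure D2:**
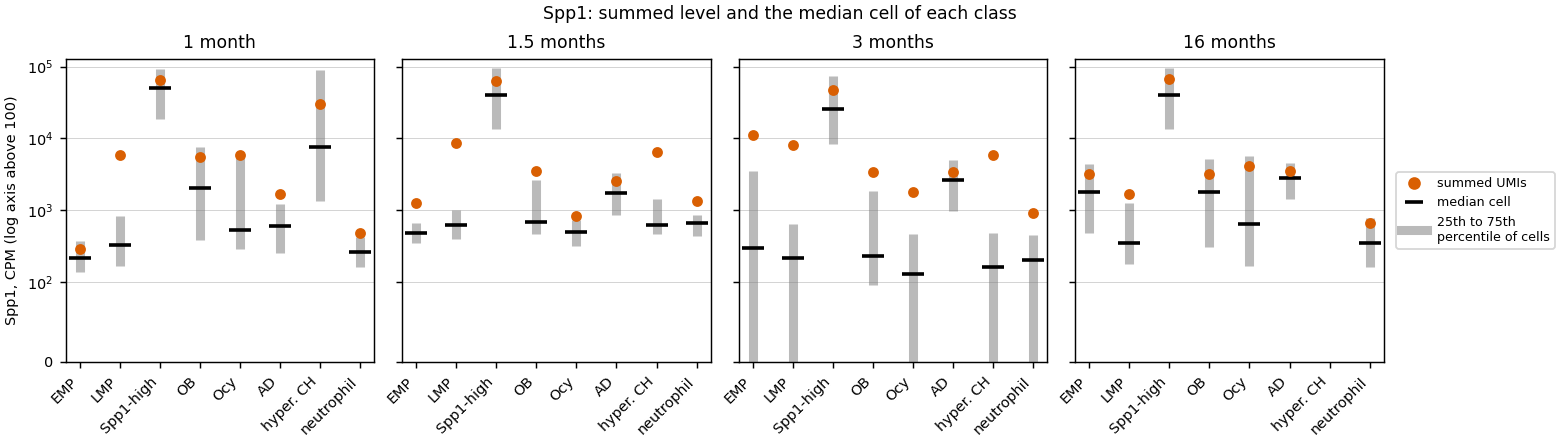
Spp1 in each class and library, in CPM on an axis that is logarithmic above 100 and linear below it; orange points give the level from summed UMIs, black lines the median cell and grey bars the 25th to 75th percentile of cells. In LMP-like cells at 3 months the summed level was 8081 CPM and the median cell 214 CPM, whereas AD-like cells held 3359 CPM with a median cell of 2629 CPM.

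Dmp1, which osteocytes secrete and which takes part in phosphate control, was at 26.6, 43.6, 44.9 and 18.3 CPM in LMP-like cells, at 112, 370, 410 and 193 CPM in OB-like cells. Ocy-like cells held 4603 (4440 to 4770), 5965 (5834 to 6099), 5773 (5480 to 6078) and 1104 CPM (1028 to 1184) of it. Both steps were upward in every library. From LMP-like to OB-like cells the ratio was 4.20 (3.53 to 5.03), 8.50 (7.6 to 9.52), 9.14 (7.59 to 11.1) and 10.5 (7.79 to 14.5), and from OB-like to Ocy-like cells 41.2 (37.6 to 45.1), 16.1 (15.4 to 16.9), 14.1 (13.1 to 15.2) and 5.74 (5.25 to 6.26). Both classes held less Dmp1 at 16 months than at 3 months, and the 16 month ratio of the summed levels of Ocy-like over OB-like cells was the smallest of the 4. With each cell weighted equally the levels were 5183, 6857, 6106 and 2309 CPM in the Ocy-like class and 111, 393, 561 and 116 CPM in the OB-like class, and the smallest ratio was then at 3 months. After each cell was thinned to 3000 UMIs, Dmp1 was detected in 92.7%, 94.7%, 93.9% and 65.0% of Ocy-like cells, in 18.2%, 43.3%, 36.5% and 30.5% of OB-like cells and in 1.67%, 5.71%, 2.05% and 1.74% of neutrophil-like cells. Before thinning the shares were 92.7%, 98.9%, 93.9% and 69.8% in Ocy-like and 5.52%, 19.3%, 3.49% and 2.35% in neutrophil-like cells. Median depth was 16409, 13392, 7717 and 8473 UMIs in Ocy-like and 11242, 7801, 6006 and 7206 UMIs in neutrophil-like cells, and at 16 months thinning left 40 of 53 Ocy-like and 243 of 424 OB-like cells.

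Phex, the endopeptidase, showed the same 2 steps and a sharper floor. It was at 4.36, 5.31, 4.02 and 7.91 CPM in LMP-like cells, near the 2.26, 11.2, 2.71 and 13.2 CPM of neutrophil-like cells, and at 52.0, 92.9, 87.6 and 103 CPM in OB-like cells. Ocy-like cells held 1054 (977 to 1136), 856 (807 to 908), 1163 (1034 to 1305) and 1460 CPM (1373 to 1552). The ratios of OB-like over LMP-like cells were 11.9 (8.03 to 18.5), 17.5 (12.9 to 24.3), 21.8 (12 to 44.2) and 13.1 (8.32 to 21.8), and those of Ocy-like over OB-like cells 20.3, 9.22, 13.3 and 14.1. Unlike Dmp1, Phex was at its highest in Ocy-like cells at 16 months. EMP-like cells broke the order, with 66.3 CPM at 1 month and 58.6 CPM at 16 months against 14.5 and 6.17 CPM at 1.5 and 3 months. Phex was detected in 14.9% and 13% of thinned EMP-like cells at 1 and 16 months and in 0.469% and 2.79% of neutrophil-like cells.

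In Ocy-like cells most cells held both Dmp1 and Phex, as their high shares require at 1, 1.5 and 3 months but not at 16 months. Of the Ocy-like cells, 38 of 41, 94 of 95, 31 of 33 and 32 of 53 held at least 1 UMI of each at 1, 1.5, 3 and 16 months. In OB-like cells at 1 month 75 of 303 held both, 75 held Dmp1 alone and 66 held Phex alone, and at 1.5, 3 and 16 months 169 of 360, 87 of 296 and 124 of 424 held both. Whether the genes share OB-like cells, or Ocy-like cells at 16 months, beyond the shares of each was not tested.

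Mepe, a SIBLING protein whose peptides restrain mineralization, was read from few UMIs. It gave no UMI in EMP-like cells of any library, with upper limits of 2.88, 3.82, 7.58 and 3.18 CPM, and 0, 2, 0 and 0 UMIs in LMP-like cells. In OB-like cells it was at 1.94 (10 UMIs), 4.71 (29), 15.9 (52) and 20.1 CPM (151) and in Ocy-like cells at 13.7 (9 UMIs, 6.26 to 26.0 CPM), 14.5 (19, 8.70 to 22.6), 67.5 (17, 39.3 to 108) and 228 CPM (162, 194 to 266). Ocy-like cells were thus higher in every library, by 7.05 (2.54 to 19.3), 3.07 (1.63 to 5.66), 4.25 (2.31 to 7.48) and 11.3-fold (9.03 to 14.3). These sums rested on few cells, and the median Ocy-like cell held no Mepe UMI in any library. At 1 and 1.5 months 5 of 41 and 10 of 95 cells held all of the Mepe UMIs. At 3 and 16 months 4 of 33 and 6 of 53 cells held 88.2% and 82.1% of them. After thinning, Mepe was seen in 7.32%, 4.21%, 12.1% and 20% of Ocy-like cells, in 0.330%, 0.556%, 2.78% and 4.94% of OB-like cells and in at most 0.205% of neutrophil-like cells. In Ocy-like cells the intervals of the levels at 1 and 1.5 months met each other, and neither met the interval at 16 months.

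**Figure D3:**
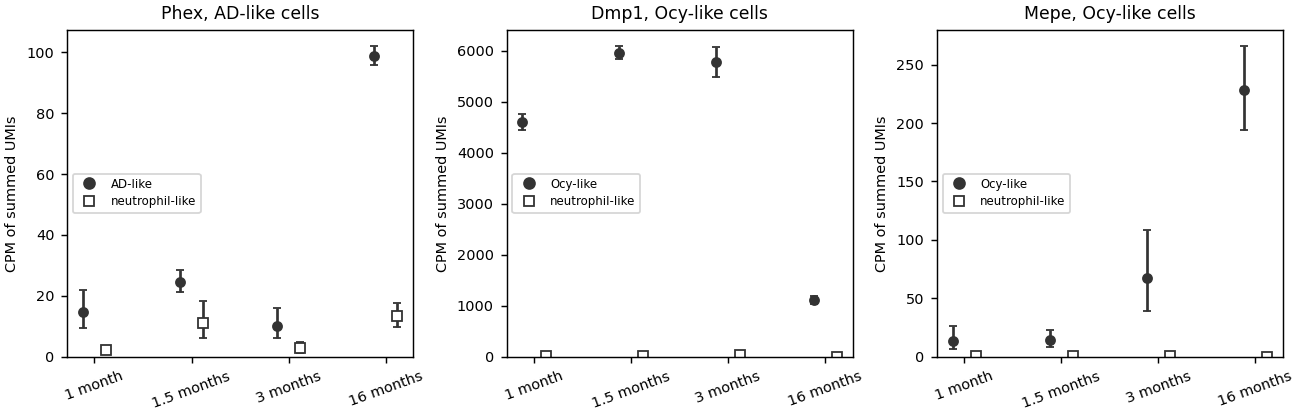
Phex in AD-like cells and Dmp1 and Mepe in Ocy-like cells (filled points) beside neutrophil-like cells of the same library (open squares), in CPM of summed UMIs on linear axes with 95% Poisson intervals and 1 pooled library per age. At 16 months Phex in AD-like cells stood at 98.9 CPM and Mepe in Ocy-like cells at 228 CPM, above their other 3 values. Dmp1 in Ocy-like cells then stood at 1104 CPM, below its other 3. Of the 53 Ocy-like cells at 16 months, 6 held 82.1% of the Mepe UMIs.

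Enpp1, the source of pyrophosphate, was higher in Ocy-like than in OB-like cells by summed UMIs, where Alpl was lower, but it was read from few UMIs. It was at 49.0, 51.4, 39.4 and 36.2 CPM in LMP-like cells and at 4.66 (2.99 to 6.93), 7.47 (5.47 to 9.96), 10.1 (6.93 to 14.1) and 6.13 CPM (4.49 to 8.17) in OB-like cells. OB-like cells held the least Enpp1 of the named mesenchymal classes in all 4 libraries. In Ocy-like cells it was at 77.6, 35.8, 27.8 and 16.9 CPM, read from 51, 47, 7 and 12 UMIs, so the ratio over OB-like cells was 16.7 (10.1 to 28.3) at 1 month but only 2.76 (1.03 to 6.35) at 3 months. At 3 months 4 of the 33 Ocy-like cells held 71.4% of the Enpp1 UMIs of the class. The levels of OB-like cells were not clear of the neutrophil-like cells, at 1.91, 35.8, 6.66 and 6.92 CPM. At 1.5 months the Ocy-like level was not above the neutrophil-like one either. There the mean per cell was 38.5 CPM in neutrophil-like and 2.60 CPM in erythroid-like cells, so the neutrophil-like level is a high bar. At 16 months CH-like cells held 211 CPM of Enpp1 (189 to 235), against 38.8 to 55.7 CPM in CH-like cells other than hypertrophic ones of the younger libraries. Phospho1 gave 19, 55, 21 and 15 UMIs over all kept cells of the 4 libraries and at most 4.22 CPM (3 UMIs, 0.871 to 12.4 CPM) in a named class, so its order of appearance was not detectable at this depth.

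Between LMP-like and OB-like cells, among genes with at least 50 CPM in either class, 2 of 5, 2 of 6, 2 of 5 and 3 of 5 members that passed this limit were at least 2-fold higher in OB-like cells at 1, 1.5, 3 and 16 months, where 3.84%, 3.71%, 4.73% and 5.3% of all genes tested were. Dmp1 and Phex made up the count in each library, joined by Ibsp at 16 months, but both were under 50 CPM in LMP-like cells and passed the limit only through OB-like cells, so the count says nothing beyond their levels. None, 2 (Spp1 and Enpp1), 1 (Spp1) and 1 (Alpl) were lower, where 21%, 24.6%, 23.1% and 34.1% of all genes were. From OB-like to Ocy-like cells 4 of 6, 3 of 5, 4 of 6 and 4 of 6 members were higher, against 12.5%, 13.7%, 18% and 16.8% of all genes, and Ibsp, Dmp1 and Phex were among them each time, with Enpp1 at 1 month and Mepe at 3 and 16 months, which passed the limit only through Ocy-like cells. Alpl was lower in all 4 libraries and Spp1 at 1.5 months, against 9.68%, 4.23%, 9.04% and 4.72% of all genes. The median log2 ratio over the members tested was 1.98, 1.46, 1.54 and 1.86, and over all genes tested 0.00, 0.25, 0.23 and 0.30. Members under the limit of 50 CPM in both classes were left out of these counts, and they were Mepe, Enpp1 and Phospho1 in most of them.

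**Figure D4:**
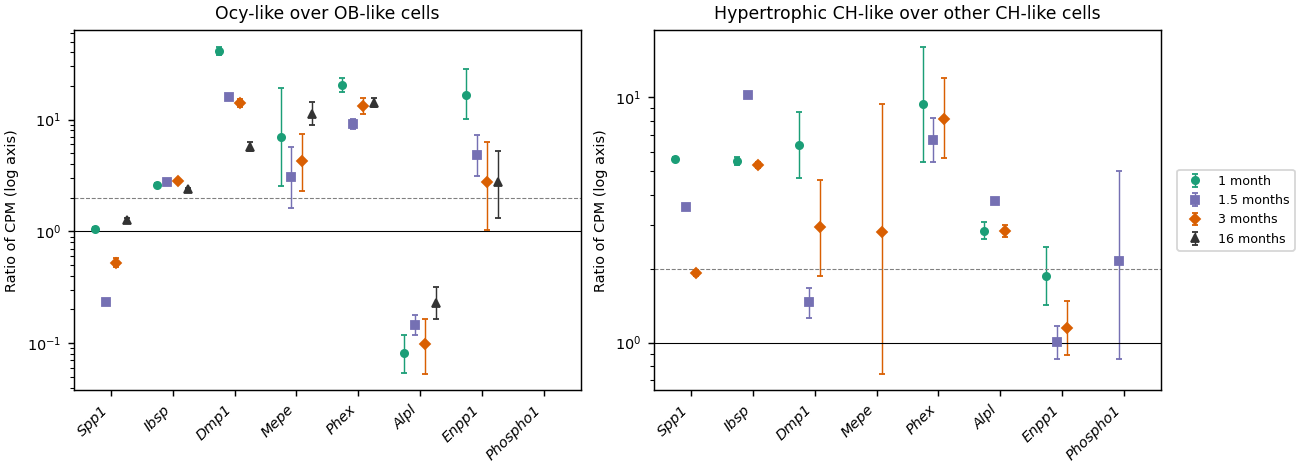
Ratio of CPM for each gene on logarithmic axes, of Ocy-like over OB-like cells (left) and of hypertrophic over other CH-like cells (right), 1 marker per library with 95% intervals from the counts. The solid line marks equal levels and the dashed line 2-fold, and no marker is drawn where either class held 3 UMIs or fewer. Ratios of Dmp1 over OB-like cells ran from 5.74 to 41.2 and those of Alpl lay under the line of equal levels in every library.

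The order was also read without class borders, along diffusion pseudotime that started in EMP-like cells. AD-like and CH-like cells and clusters mixed with blood or endothelial genes were left out, and all other mesenchymal cells, unnamed subclusters included, were kept. Each library was cut into 10 bins of equal cell number (151, 197, 119 and 131 cells per bin). The first bin with at least 50% of the highest bin was 5, 4, 4 and 2 for Alpl and 5, 3, 4 and 4 for Ibsp at 1, 1.5, 3 and 16 months. Spp1 followed in bins 6, 6, 6 and 5, with its highest bin at 32089, 41535, 75647 and 85855 CPM. Dmp1 reached this level only in bin 10 in the younger 3 libraries and in bin 5 at 16 months. Phex reached it in bin 10 in all 4. Mepe had too few UMIs at 1 month and came in bins 8, 6 and 7 at the later ages. Enpp1 first reached 50% of its highest bin in bins 2, 1, 1 and 4, but that highest bin was 2, 7, 6 and 5. At 3 and 16 months Enpp1 was thus highest in the middle of the path, in the bins where Spp1 was highest too. At 16 months Enpp1 came after Alpl. At 1.5 months the intervals of Enpp1 in bin 1 (57.6 to 84.3 CPM) and bin 7 (58.0 to 84.6 CPM) nearly coincided. The start of the path was thus as high as the middle there. By the first bin at 50%, the sequence Alpl and Ibsp, then Spp1, then Phex held in each library, and Dmp1 joined Phex in 3 of them. The Spp1-high subclusters, singled out on their Spp1 values, lay on this path with a median bin of 7, 7, 7 and 5. Bin 5 was also where Dmp1 first reached 50% at 16 months. In the younger 2 libraries the Limch1 and Kcnk2 subcluster, with Cebpa and Pparg raised, had a median bin of 7. The order without these subclusters was not tested. All of the Ocy-like cells at 1 and 1.5 months lay in the last bin, with 95 and 85 OB-like cells, 32 of 33 did so at 3 months and 29 of 53 at 16 months. That bin at 16 months also held 39 cells of an unnamed subcluster led by hemoglobin genes, with adipocyte-lineage markers such as Adipoq raised. At 1 and 1.5 months the last bin held 13 and 17 cells of an unnamed subcluster led by Tnmd and Thbs4. A further 16 month subcluster on the path, 45 cells led by Cxcl9, also had Adipoq raised. The part of these cells in the order was not tested.

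**Figure D5:**
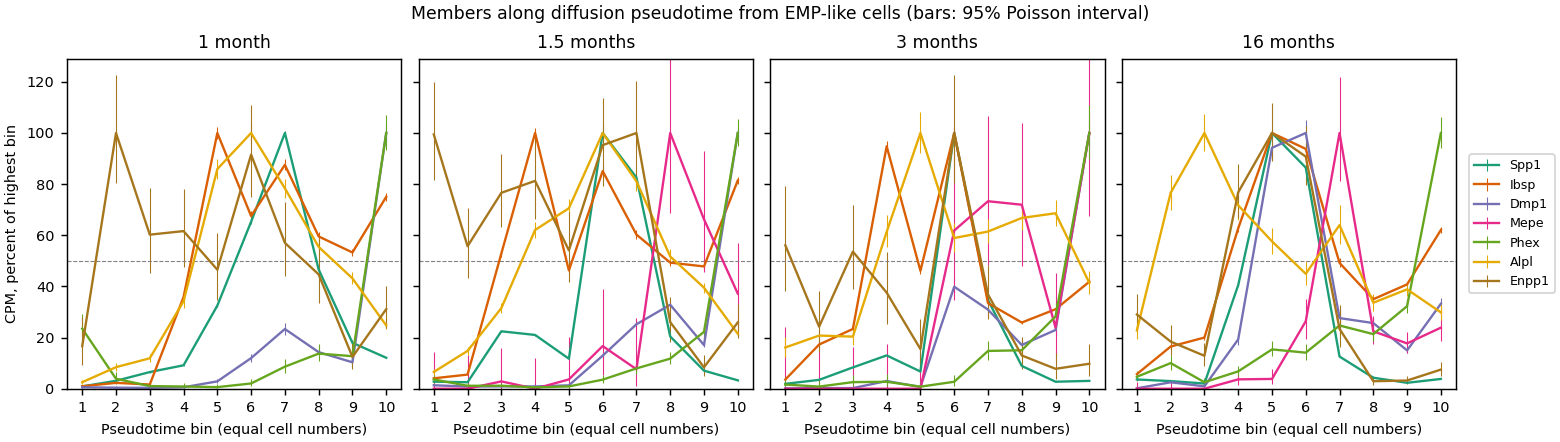
Each gene along 10 pseudotime bins of equal cell number from EMP-like cells, as a percent of its own highest bin, 1 panel per library, with bars for 95% Poisson intervals (some run past the axis) and a dashed line at 50%; Phospho1, and Mepe at 1 month, are left out for few UMIs. Phex crossed the line in bin 10 of every library, whereas Alpl crossed it in bins 5, 4, 4 and 2.

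In the growth plate lineage, hypertrophic CH-like cells, which prepare cartilage for mineral, held more Alpl and Ibsp than the other CH-like cells. Those other cells were not free of hypertrophic markers. At 3 months they included a cluster of 331 cells with Ihh, Pth1r, Panx3, Scin and Mef2c raised. The joined 1 and 1.5 month libraries included one of 849 cells with Pth1r, Panx3 and Scin raised. Alpl in hypertrophic cells was at 1134, 1299 and 1709 CPM at 1, 1.5 and 3 months against 396, 344 and 599 CPM, a ratio of 2.86, 3.78 and 2.86. It was higher there than in any other named class of these libraries. Ibsp was at 6173, 4632 and 10023 CPM against 1123, 453 and 1894 CPM, a ratio of 5.50 (5.29 to 5.70), 10.2 (10.0 to 10.5) and 5.29 (5.16 to 5.43). Spp1 was at 29858, 6542 and 5912 CPM against 5335, 1840 and 3073 CPM, but the median hypertrophic cell held 7662, 625 and 160 CPM, and 29 of 288 cells at 1.5 months and 15 of 141 at 3 months held 84.0% and 93.4% of it. Phex, at 42 (28.3 to 59.9), 44.7 (39.2 to 50.8) and 63.2 CPM (49.9 to 79.0), was above the other CH-like cells (4.48, 6.70 and 7.73 CPM) and nearer to OB-like than to Ocy-like cells. Dmp1 was at 102, 50.4 and 27.1 CPM, with a ratio of 6.39 (4.68 to 8.69) at 1 month, where 5 of 44 cells held 95.9% of the UMIs and the median cell none, and 1.46 (1.26 to 1.67) at 1.5 months, and Mepe at 1 month came from 16 UMIs in 4.55% of 44 cells. At 2-fold, 4 of 5, 3 of 4 and 3 of 5 members tested were higher, where 3.99%, 4.76% and 7.29% of all genes were, and Ibsp and Alpl were in each count. Dmp1 at 1 month and Phex at 3 months passed the limit only through hypertrophic cells.

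Between the 3 and 16 month libraries, Spp1 and Ibsp in LMP-like cells were 4.79-fold and 6.39-fold lower at 16 months, Dmp1 and Alpl in OB-like cells 2.13-fold and 2.39-fold lower, and Phex in AD-like cells 9.76-fold higher. In LMP-like cells 2 of 3 members tested were lower and none higher, where 9.25% of all genes were lower and 18% higher. In OB-like cells 2 of 5 were lower and none higher, where 5.84% were lower and 7.25% higher. In AD-like cells 1 of 3 was higher and none lower, where 9.76% were higher and 5.82% lower, and Phex passed the limit only through the 16 month library. The 16 month table lists 31054 genes and the others 27999, and the part of this difference in the ratios was not tested. The Spp1 value fell under 2-fold without the cells that hold most Spp1, and with classes from marker scores, and the Dmp1 value did so under these settings and with a 10% mitochondrial limit. For Spp1 the LMP-like change lay in the few cells with most of its UMIs, since the median cell was at 214 CPM at 3 months and 351 CPM at 16 months. For Ibsp the median LMP-like cell went the same way as the sum, from 610 to 79.9 CPM. The class was not made alike, since at 3 months it joined a subcluster of 239 cells led by Aspn, Ptn and Postn, with 13505 CPM of Ibsp, to one of 232 cells led by Sfrp2 and Nov, with 870 CPM, and at 16 months it was 1 subcluster led by Aspn and Postn. In the OB-like class at 16 months both subclusters held less Alpl and Dmp1 than the 3 month class, with 214 and 253 CPM of Alpl and 189 and 195 CPM of Dmp1.

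AD-like cells, of the adipocyte lineage, carried Ibsp and Spp1 at levels over those of neutrophil-like cells. Ibsp was at 2301, 4160, 3469 and 2390 CPM in them and Spp1 at 1697, 2511, 3359 and 3508 CPM, and for Spp1 the median cell, at 597, 1729, 2629 and 2766 CPM, was nearer to the sum than in LMP-like cells. Both genes were thus present outside the osteogenic path. Phex in AD-like cells was at 14.8 (9.57 to 21.8), 24.7 (21.2 to 28.6), 10.1 (6.01 to 16.0) and 98.9 CPM (95.7 to 102), and it was seen in 4.15%, 6.31%, 3.38% and 19.5% of thinned cells against 0.469%, 2.14%, 1.23% and 2.79% of neutrophil-like cells. At 16 months the class held 3661 cells, and its highest Phex, 277 CPM (234 to 326), was in a subcluster of 59 cells led by Fabp4. Alpl in AD-like cells was at 236, 117, 42.2 and 46.5 CPM, and Dmp1 at 7.69, 46.1, 5.07 and 3.98 CPM, near the neutrophil-like level of 7.66, 22.4, 27.6 and 2.41 CPM.

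Among 20 further genes of mineralization, 6 of 10, 6 of 13, 7 of 13 and 8 of 14 tested were 2-fold higher going from LMP-like to OB-like cells, and 7 of 15, 6 of 15, 6 of 15 and 6 of 14 were higher in Ocy-like than in OB-like cells. Lower by as much were 2, 3, 3 and 4 of them in the first comparison and 1, 3, 5 and 3 in the second, and the shares of all genes are those given above for the same classes. Bglap and Bglap2, which named OB-like cells, and Sost and Pdpn, which named Ocy-like cells, are in the higher counts through that naming. In the second comparison Ank, Sost and Pdpn passed the limit of 50 CPM only through the Ocy-like class in every library. Fam20c and Nt5e did so in some libraries, and Vdr at 1 month. In the first, Enpp6 passed only through OB-like cells in every library, and Fam20c, Smpd3 and Vdr in some. For these genes the counts say nothing beyond their levels. The median log2 ratio of the tested genes of this list from OB-like to Ocy-like cells was 0.44, 0.19, 0.20 and 0.14, close to that of all genes except at 1 month. Fam20c, the kinase that phosphorylates SIBLING proteins, was at 31.1, 44.2, 57.1 and 61.6 CPM in OB-like cells but reached 481, 513, 731 and 601 CPM in the Ocy-like class, and it was also higher in hypertrophic than in other CH-like cells in all 3 libraries that had them. Ank, a pyrophosphate transporter, moved as Enpp1 did, at 64.4, 78.9, 60.6 and 53.7 CPM in LMP-like, 12, 15.6, 11.9 and 17.1 CPM in OB-like and, in the Ocy-like class, 176, 61.6, 95.3 and 132 CPM. Smpd3, a sphingomyelinase needed for matrix mineral, was at 442, 423, 754 and 723 CPM in OB-like cells but only 16.7, 63.9, 47.7 and 57.7 CPM in the Ocy-like class, lower there as Alpl was. Sost, the osteocyte inhibitor of Wnt that helped to name the Ocy-like class, was at 89.7, 76.1, 71.5 and 98.6 CPM there and at most 0.974 CPM in OB-like cells. Fgf23, the phosphate hormone, was seen in Ocy-like cells at 16 months only, at 21.1 CPM from 15 UMIs (11.8 to 34.8), where 0 UMIs in the younger libraries allowed up to 5.61, 2.81 and 14.7 CPM. Dspp gave no UMI in OB-like or Ocy-like cells of any library. Bglap and Bglap2 are near-identical copies between which reads can be split.

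Across 71 classes and clusters of at least 30 cells, the genes most like a member in log2(CPM + 10) were listed as a description, since classes share libraries and depth. Dmp1 was most like Dkk1 (Pearson r 0.91), Bmp3 (0.89) and Mlip (0.86), and Phex most like Irx5 (0.88), Adamts14 (0.87) and Magi2 (0.87). Dkk1 and Irx5, and Ptprz1 named below, were markers for the Ocy-like class, and Pth1r was one for hypertrophic cells. Alpl was most like Pth1r (0.89), Ccdc80 (0.86) and Timp1 (0.84), and Ibsp most like Fgfr1 (0.85), Fat1 (0.82) and Insig2 (0.82). Spp1 was most like Srpx2 (0.82), Ibsp (0.79) and Fap (0.79), Enpp1 most like Srpx2 (0.79), Ank (0.79) and Tspan6 (0.76), and Mepe most like Bmp8a (0.79), Ptprz1 (0.77) and Farp2 (0.77). Phospho1 was under 50 CPM in every class. Between members, r was 0.77 for Dmp1 and Phex, 0.76 for Dmp1 and Mepe, 0.75 for Mepe and Phex and 0.79 for Spp1 and Ibsp.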

How the data were processed

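Td+ endosteal marrow cells of 1 pooled library per age were analysed. The authors aligned reads to mm10 and deposited raw UMI counts per gene and barcode from Cell Ranger 3.0.2, with no normalization and before filtering. Barcodes were retained at 200 to 6000 genes with no more than 5% of UMIs from mitochondria. In Seurat 5.3.0 (R 4.3.3), canonical correlation (30 vectors) joined the libraries of 1 and 1.5 months, and the others were reduced to 30 components each, from 2000 variable genes without the 8 members, regressing UMIs and mitochondrial percent, at resolution 0.8, and mesenchymal clusters were clustered again. Names needed 3 markers of a cell type at 2-fold, each with a UMI in 10% of cells and 25% of the highest cluster's level, no rival type with more markers in the 10 leading genes, and either 1 own marker there or 5 raised. A chondrocyte cluster was called hypertrophic with 4 hypertrophic markers raised and 2 among its leading genes. Doublets were removed only by the limit of 6000 genes.

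CPM with Poisson and shares with Clopper-Pearson intervals were computed in Python 3.11.15 (numpy 2.4.6, scipy 1.17.1, pandas 2.3.3). Diffusion pseudotime was computed with the same packages, with 30 neighbours and 10 components, and Scrublet scores in scanpy 1.11.5. Shares used cells thinned to 3000 UMIs, leaving out shallower cells. The ratio measure was tested on simulated data. Named genes are the 8 members, a list of 20, the 3 genes most like each member (at least 50 CPM in 1 class) and leading genes of clusters. Members and lists were chosen with earlier results of these data known, and EMP-like against LMP-like cells was compared in addition to the planned results. The alternatives tried are given with their effects at the end.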

Additional observations from a re-analysis of the deposited data

Results flagged for a closer look

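For 3 ratios of a member between the same classes, at least 1 library was 1.5-fold or more higher and at least 1 was 1.5-fold or more lower, and the libraries farthest apart are given. Smaller turns of direction, such as that of Spp1 from OB-like to Ocy-like cells, are in the report's values. From LMP-like to OB-like cells, Spp1 was 1.90 times as high at 16 months but 2.38-fold lower at 1.5 months (a ratio of 0.420), and Ibsp was 2.84 times as high at 16 months but 1.76-fold lower at 3 months (0.568). From EMP-like to LMP-like cells, Spp1 was 20.5 times as high at 1 month but 1.91-fold lower at 16 months (0.522). The differences between these libraries were not tested, since each age is 1 library.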

How the results depend on the processing

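No paired analysis was possible because each age is 1 library without replicates. The counts of members at 2-fold moved by over 1.5 times as follows. From LMP-like to OB-like cells at 1 month (2), 4 were higher with classes from marker scores, with no minimum CPM, and without the 10% of cells with most Spp1, and 1 when cells were thinned and when neutrophil-like levels were subtracted. With no minimum CPM, which admits members of few UMIs, the counts were 4 (main 2) at 1.5 and 3 months and 5 (main 3) at 16 months. From OB-like to Ocy-like cells at 1.5 months (3), they were 5 with at least 10 CPM and 6 with no minimum. In hypertrophic CH-like cells no minimum gave 6 at 1.5 months and 5 at 3 months (3 each). Between 16 and 3 months, LMP-like cells (2) gave 1 with marker scores and without the cells highest in Spp1 and 4 with no minimum, OB-like cells (2) gave 1 with the 10% mitochondrial limit, marker scores or without the cells highest in Spp1 and 0 at 3-fold, and AD-like cells (1) gave 4 with marker scores and 3 with no minimum. The members that reached 50% of their highest bin in the last bins at 3 months fell from 2 to 1 when 25% was asked. The causes were not tested beyond what each setting changes by construction. Marker scores moved 148 of 216 levels past their counting interval, resolution 0.5 moved 66 of 200 and Scrublet removal of the highest 8% moved 69 of 176. Leaving out the shallow OB-like subcluster, using the Ostn and Postn LMP-like subclusters alone, and leaving out the cells highest in Spp1 were chosen after seeing the data, and moved 5 of 104, 16 of 168 and 88 of 216 levels. Some settings left too few cells to give a count. For OB-like to Ocy-like cells these were 3 months under Scrublet and 16 months under Scrublet and resolution 1.2. For hypertrophic cells they were 1 month under the 10% mitochondrial limit, Scrublet and separate clustering, 1.5 months under the 10% limit and Scrublet, and 3 months under Scrublet and resolution 0.5. For AD-like cells it was resolution 1.2. Levels from under 20 UMIs (Mepe, Phospho1) are limited by depth, and 33 to 95 Ocy-like cells per library limit every osteocyte value.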
